A study of Homo sapiens with 2 samples.

Results

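Mucins are large glycoproteins that coat moist epithelia, and 10 genes of this secretory programme were examined in SAS cells and in eSAS cells. SAS is a line from a human tongue squamous cell carcinoma, and eSAS is the population left after 5 rounds in which large spheroids of SAS cells were trapped on a removable mesh and grown again. The methods also describe growing lines from dispersed single cells, and whether the eSAS RNA came from 1 such line is not given in the sources used here. Both populations share the same parental tumor, and the labels name no drug, gene change or other treatment of either. The question was whether expression differed between the parental and the selected cells. Total RNA of each population was hybridised to 1 array of a 1-colour whole human genome design, so there was no replicate array, no test between the populations was possible, and precision is limited by the number of arrays.

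The genes were taken by name, with no threshold on their values: MUC5AC, MUC5B, MUC1, MUC4, MUC15, MUC16, MUC20, AGR2, TFF1 and TFF3. They are 10 of 30398 gene names on the array and carry 18 of its 41000 probes, each spotted once. The scanner software marked 0 of these 18 spots as non-uniform or as outliers.

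MUC5AC and MUC5B encode secreted mucins that polymerise into gels, and MUC5B is a main mucin of saliva. MUC1, MUC4, MUC15, MUC16 and MUC20 encode mucins that stay anchored in the cell membrane, where MUC1 and MUC4 are known partners of receptors of the EGF receptor family. TFF1 and TFF3 encode trefoil peptides, small secreted proteins that accompany mucins and aid repair of the epithelial surface, and AGR2 encodes a protein disulfide isomerase of the endoplasmic reticulum that helps mucins fold.

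The promoters of MUC1 and AGR2 are shown because these were the genes with the largest shifts among the 10. Of the 10 genes, 4 had an entry in the RefSeq promoter table of GRCh38.p14, and the 250 bases before the start site are given 5′ to 3′ on the strand of the gene, here the minus strand for both. The MUC1 stretch is chr1:155192916-155193165 and the AGR2 stretch is chr7:16805000-16805249. Capitals mark matches on either strand to 5 motifs: the TATA box, searched as TATAAA; the GC box, searched as GGGCGG, whose neighbouring matches overlap; the E-box, searched as CACCTG; and a pair of forkhead forms, searched as GTAAACA for the longer core and as TGTTTGC for the other.
MUC1: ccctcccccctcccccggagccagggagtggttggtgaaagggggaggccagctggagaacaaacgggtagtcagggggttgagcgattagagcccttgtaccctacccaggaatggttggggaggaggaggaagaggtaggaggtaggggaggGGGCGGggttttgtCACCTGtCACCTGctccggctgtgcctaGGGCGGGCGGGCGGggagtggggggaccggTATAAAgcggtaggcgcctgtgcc
AGR2: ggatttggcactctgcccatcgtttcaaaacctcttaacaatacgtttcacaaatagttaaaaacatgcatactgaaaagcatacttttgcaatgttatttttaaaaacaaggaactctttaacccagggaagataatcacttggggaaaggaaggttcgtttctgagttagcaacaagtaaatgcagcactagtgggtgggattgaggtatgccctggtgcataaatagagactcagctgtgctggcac

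The MUC1 stretch held 1 match to the TATA box, 4 to the GC box and 2 to the E-box, and its GC content was 66.0%. The AGR2 stretch held 0 matches to any of the 5 motifs, and its GC content was 40.4%, on either side of the median of 58.0% over 27305 promoters. Of these promoters, 11.1% held the TATA box, 42.3% the GC box, 17.5% the E-box, and 2.98% and 3.19% the first and the other forkhead form. The matches describe letters in these windows and were not tied to any measurement of binding.

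Each array held 43376 probe spots, of which 67.5% to 69.4% were well above background as the scanner software judged it, and 0 were saturated. That software also subtracts the background and removes spatial trends, which gives the processed signal used here. Ratios were taken from its log2 value minus the 75th percentile of each array, which was 1242 for SAS and 1196 for eSAS. On these arrays, 194 spots of the SAS array were marked as non-uniform, against 9 of the eSAS array, and 183 of the 194 lay in rows 450 to 510. Of the 18 spots examined, 2 lay in these rows. Both were dim on both arrays, so no ratio given for the 10 genes came from that area. The labelled cell type was checked by its markers. All 10 squamous markers that could be measured, KRT5 and KRT14 among them, were well above background on both arrays, as were all 5 keratin and adhesion genes of simple epithelium. Markers of other cells were mixed. PTPRC and CD3E of leukocytes, PECAM1 and KDR of endothelium and COL1A2, COL3A1, DCN and PDGFRB of fibroblasts were well above background on neither array. CD68 and CD14 of the leukocyte list and 1 probe of VWF of endothelium were well above background on both, COL1A1 and CDH5 on SAS alone and LUM on eSAS alone.

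Of the 18 probes, 7 were well above background on both arrays, 11 on neither and 0 on only 1 of them. This share of 38.9% can be set beside 65.3% of all 40814 probes left after marked spots were removed. The 7 measured probes belonged to 7 genes: MUC5AC, MUC5B, MUC1, MUC20, AGR2, TFF1 and TFF3. MUC4, MUC15 and MUC16, each with 1 probe, had no measurable signal in either population.

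**Figure D1:**
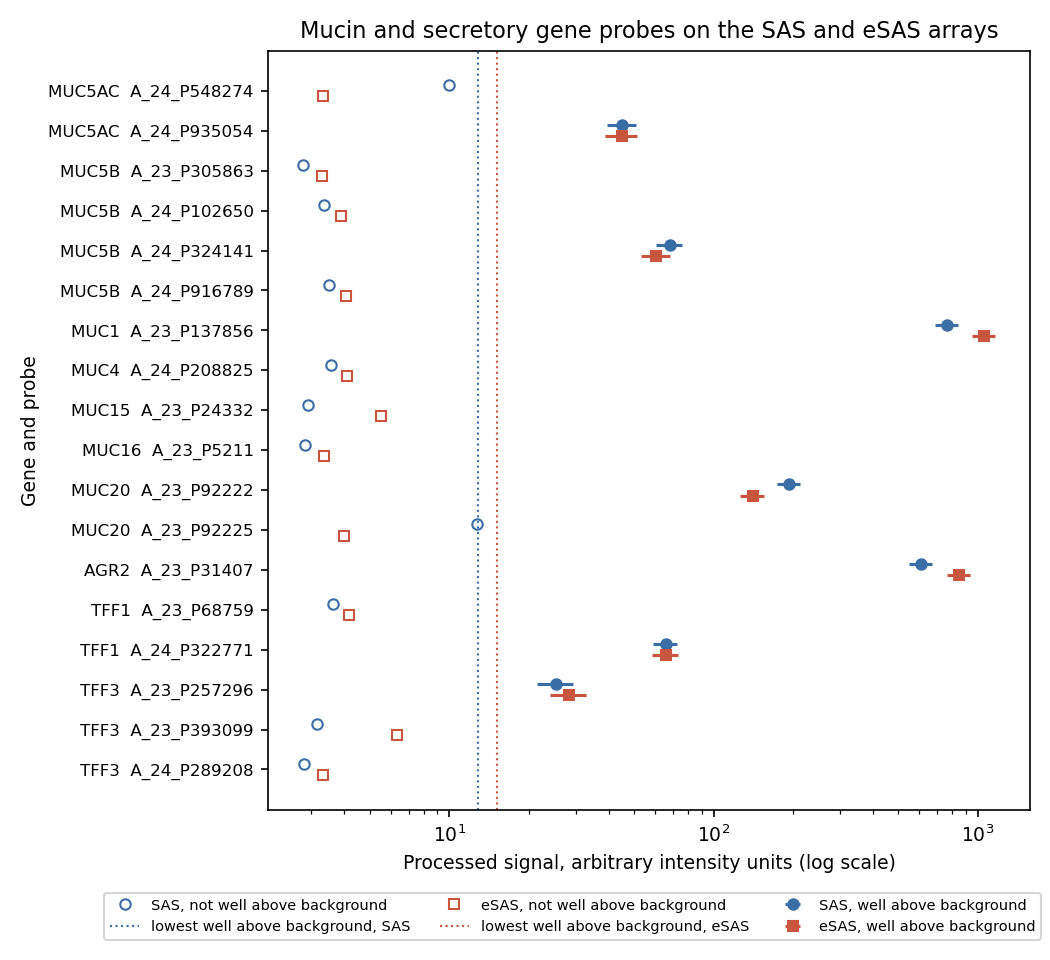
Processed signal (log scale, arbitrary intensity units) of the 18 probes on the SAS array (circles) and the eSAS array (squares), with the error estimated by the scanner software as bars where the probe was well above background. Open symbols are probes not well above background, and dotted lines give the lowest signal of any probe well above background, 12.8 for SAS and 15.2 for eSAS. The 7 measured probes lie to the right of both lines, and MUC1 and AGR2 are shifted to the right in eSAS.

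None of the 7 measured probes was 2-fold apart between the populations. Of the 7, 0 were higher by 2-fold or more in eSAS, where 1.83% of the 28439 probes well above background on 1 or both arrays were, and 0 were lower by that fold, where 1.97% were. Over the 26659 probes measured on both arrays these shares were 0.938% and 1.26%, or 2.19% in either direction. With so few probes, a count of 0 is near this background and is not a result about the genes. Of the 7 probes, 5 were higher in eSAS and 2 were lower. The median log2 ratio of the 7 genes was 0.056, with a range from -0.40 to 0.53, beside a median of -0.0012 over 19476 genes. Fewer cells of a kind and less RNA per cell cannot be told apart in such bulk samples. The SD of the log2 ratios was 0.34 over the 7 probes and 0.36 over all 26659 measured probes.

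A pair of error measures stands beside each ratio. The scanner software gives an error for each processed signal, which the 2 arrays together turn into an error of the log2 ratio. Probes spotted several times give the other, the SD of the log2 ratio between spots of the same probe, taken here over probes within 2-fold of the same brightness. Neither holds the variation between cultures or between hybridisations.

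Among the secreted gel-forming mucins, neither gene shifted beyond these errors. The measured MUC5AC probe, A_24_P935054, had a processed signal of 45.0 ± 5.74 in SAS and 45.0 ± 6.08 in eSAS (error of the software, 1 spot each). Its log2 ratio of 0.053 was smaller than the SD of 0.20 between replicate spots of like brightness. The files give no genome position for either MUC5AC probe.

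The measured MUC5B probe, A_24_P324141, lies at 1225946 to 1226005 on chromosome 11 (hg18). The spot gave 68.2 ± 7.81 in SAS and 60.6 ± 7.49 in eSAS. The log2 ratio of -0.11 lay within the replicate spot SD of 0.17. MUC5B thus stood at a similar signal on both arrays at this probe, while its other 3 probes, between 1229548 and 1237815, were not well above background on either.

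Among the membrane-bound mucins, MUC1 was higher and MUC20 was lower in eSAS. MUC1, a broadly expressed mucin of the apical membrane whose cytoplasmic tail takes part in signalling, had 1 probe, A_23_P137856, whose span in the files is 153425276 to 153426350 on chromosome 1 (hg18). The spot gave 765 ± 76.6 in SAS and 1055 ± 106 in eSAS, so eSAS was 1.43-fold higher after scaling. The log2 ratio of 0.52 was 12.0 times the replicate spot SD of 0.043 (50 probes of like brightness) and 2.54 times the combined software error of 0.20. Of all measured probes, 3.96% had a ratio at least as high, and of the 6430 probes within 2-fold of its brightness 2.15% did.

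MUC20, a membrane mucin first described in kidney and known as a partner of the MET receptor, had 2 probes on chromosome 3 of hg18. The measured probe, A_23_P92222 at 196945963 to 196946022, had a processed signal of 193 ± 19.6 in SAS and 140 ± 14.7 in eSAS. The SAS array was 1.32-fold higher at this probe, and the log2 ratio of -0.40 was 4.16 times the replicate spot SD of 0.097 and 1.92 times the software error. A ratio at least as low was seen for 9.03% of all measured probes and for 11.3% of the 5972 within 2-fold of its brightness. The direction depended on the background correction: it was -0.27 without any, and turned to 1.59 and 1.62 with normexp, an alternative correction, on mean and median pixels of all spots. Normexp on all spots also raised the median over all genes to 0.68. Where spots with a non-uniform local background were left out first, normexp gave -0.28 for this probe. The other MUC20 probe, A_23_P92225 at 196938969 to 196939028, lay in row 453 and was not well above background on either array, with values of 12.7 on SAS and 4.00 on eSAS, so it gave no ratio.

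MUC4 encodes a large membrane mucin that binds ERBB2, and its gene is a neighbour of MUC20. The MUC4 probe, A_24_P208825 at 196959835 to 196959894 on the same chromosome, had processed signals of 3.58 on SAS and 4.11 on eSAS, and both were values that the software had put in place of a signal not above background. The same was true of MUC16, the mucin that carries the CA125 antigen, with 2.84 on SAS and 3.34 on eSAS at A_23_P5211, which spans chromosome 19 from 8827801 to 8829923. MUC15, whose probe A_23_P24332 lies on chromosome 11 from 26539040 to 26539099, had 2.93 on SAS and 5.52 on eSAS. Neither value of MUC15 was well above background, so no fold is given for any of these 3 genes.

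AGR2 had the largest shift of the 10 genes. Its probe, A_23_P31407, is placed at 16803799 to 16805907 on chromosome 7 (hg18). The spot gave 609 ± 60.9 in SAS and 846 ± 84.7 in eSAS, which after scaling was 1.44-fold higher in eSAS. The log2 ratio of 0.53 was 11.2 times the replicate spot SD of 0.047 (40 probes of like brightness) and 2.59 times the combined software error of 0.20. Ratios at least as high were seen for 3.83% of all measured probes and for 2.18% of the 6454 probes within 2-fold of its brightness.

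The trefoil peptides were each measured by 1 probe on chromosome 21 of hg18. For TFF1, long known as an estrogen-induced gene in breast cancer cells, the probe A_24_P322771 at 42656509 to 42656568 had a processed signal of 65.8 ± 7.07 in SAS and 65.8 ± 7.27 in eSAS. The log2 ratio of 0.056 was within the replicate spot SD of 0.17. For TFF3, the trefoil peptide of intestinal goblet cells, the probe A_23_P257296 at 42605306 to 42605365 had 25.4 ± 3.90 in SAS and 28.4 ± 4.46 in eSAS. Its log2 ratio of 0.22 was likewise within the replicate spot SD of 0.25 and the software error of 0.32.

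**Figure D2:**
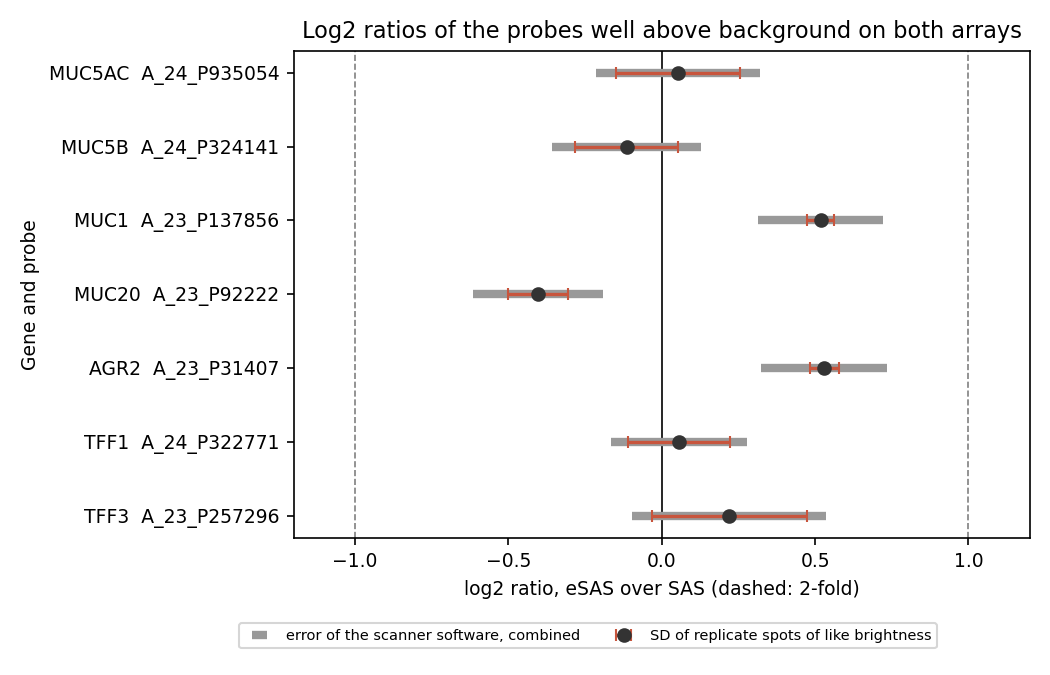
Log2 ratio of eSAS over SAS for the 7 probes well above background on both arrays, with the combined error of the scanner software (thick bars) and the SD between replicate spots of like brightness (thin bars); dashed lines mark 2-fold. MUC1 and AGR2 lie above 0 and MUC20 below 0 by more than both errors, and the bars of the other 4 probes cross 0.

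The ratios of AGR2, MUC1 and MUC20 were larger than both errors, and those of MUC5AC, MUC5B, TFF1 and TFF3 were within both. All 3 shifts were under 2-fold and rest on a single spot per array. At the AGR2 spot the median pixel was 701 on SAS and 952 on eSAS beside means of 708 and 960, and at the MUC1 spot it was 820 and 1165 beside means of 864 and 1180. At the MUC20 spot it was 200 and 168 beside means of 207 and 165.5. The SD between pixels was 67.5 and 99.3 at AGR2, 134 and 143 at MUC1, and 40.2 and 29.2 at MUC20. The local background at the AGR2 spot was 30.0 and 29.0, and at the MUC1 spot 32.5 and 28.0.

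**Figure D3:**
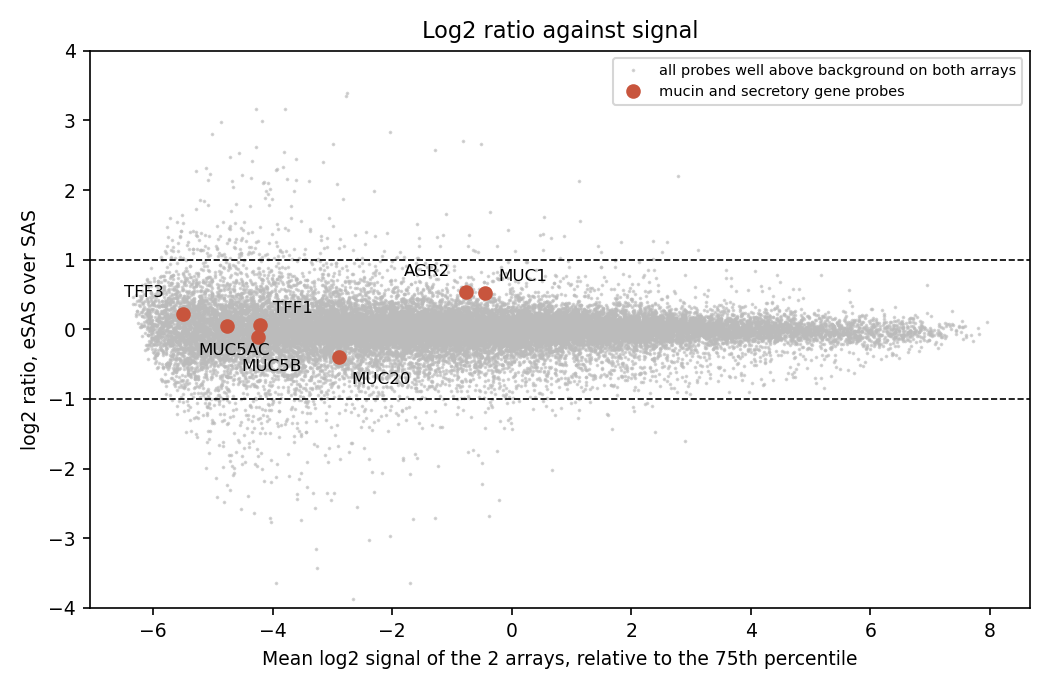
Log2 ratio of eSAS over SAS against the mean log2 signal of both arrays, relative to the 75th percentile, for all 26659 probes well above background on both arrays (grey) and the 7 mucin and secretory gene probes (red); 3 probes beyond a log2 ratio of 4 are not drawn. All 7 lie inside the grey points, AGR2 and MUC1 in the upper part at their signal and MUC20 in the lower part.

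All 5 genes with several probes had exactly 1 probe well above background, so their measurement rests on that probe alone. The 11 dim probes were compared with the 153 negative control spots of each array, which are designed not to bind sample RNA. Their mean pixel intensity before any correction was 45.5 to 59.8 in SAS and 44.6 to 57.6 in eSAS. The negative controls had a median of 44.2 and a highest value of 108 on SAS, and a median of 45.2 and a highest value of 96.5 on eSAS. The 11 probes thus lay within the range of the negative controls on both arrays. The software judged 2 of the 153 controls well above background on SAS and 3 on eSAS. Among the measured probes, that of TFF3 was the one matched or exceeded by 1.31% of the controls on each array, and for MUC5AC and MUC5B the share was 0.654%. On the SAS array, the probes closest to the upper end were A_24_P548274 of MUC5AC and A_23_P92225 of MUC20, and 1.31% of the negative controls were at least as bright as each. The software had replaced the signal of 8 of the 11 probes in SAS and of 9 in eSAS. The second TFF1 probe, A_23_P68759 at 42655482 to 42655541, was 1 of those replaced on both, although it lies near the measured probe on the chromosome. For TFF3, both other probes were dim, A_23_P393099 at 42605215 to 42605251 with 3.15 on SAS and 6.36 on eSAS and A_24_P289208 at 42608600 to 42608659 with 2.81 and 3.31. Why probes of the same gene differ in detection was not tested.

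The other genes of the pathway were taken from 4 lists with 100 genes in all, of which 98 were on the array and 68 had a probe well above background on both arrays. Of these 68 genes, 31 were higher and 37 lower in eSAS. Of their 108 probes well above background on at least 1 array, 2 were higher and 2 lower in eSAS by 2-fold or more. This is 3.70%, beside 3.79% of all probes in either direction, so the lists stood near the background. All 4 calls were lost where no background was subtracted.

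Other mucins and mucin-like glycoproteins had a median log2 ratio of -0.051 over 10 measured genes, 4 higher and 6 lower. MUC3B, a membrane mucin best known in the intestine, was the gene past 2-fold: its probe A_23_P349147 had a processed signal of 37.0 on SAS and 85.5 on eSAS, a log2 ratio of 1.26 or 2.40-fold. MUC3A and MUC3B are near-identical copies, so which of them the probe reports is uncertain. The probe named for MUC3A, A_24_P913828, had 46.5 on SAS and 42.4 on eSAS, a log2 ratio of -0.080, and so did not share the rise. CD164 and PODXL, named for their signal on the SAS array, had log2 ratios of 0.10 at A_23_P254756 and -0.58 at A_23_P215060. MUC2, the gel-forming mucin of intestine, had log2 ratios of -0.27 at A_23_P256784 and 0.11 at A_24_P341761, so its measured probes differed in sign. MUC19 was well above background on SAS, with a signal of 26.0 at A_24_P110154, and not on eSAS, with 3.55, so it was at least 1.65-fold lower. The other MUC19 probe, A_23_P434374, was well above background on neither array. MUC7, the small salivary mucin, MUC12, MUC13 and MUC17 were well above background on neither array.

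Partners and regulators of the secretory programme had a median log2 ratio of 0.0090 over 19 measured genes, 10 higher and 9 lower. ESR1 and CLCA2 were the genes more than 2-fold lower in eSAS. ESR1, the estrogen receptor known to induce TFF1, was measured by 9 unmarked spots of A_23_P309739, with processed signals from 70.8 to 113 on SAS (median 75.2) and from 19.0 to 28.5 on eSAS (median 24.3). The log2 ratio was -1.68 ± 0.24 (SD between 9 spots, which are not replicate cultures), or 3.20-fold lower in eSAS. On the eSAS array 7 of the 9 spots were well above background, and of the other ESR1 probes 1 was dim on both arrays and 1, A_24_P383478, was at least 1.39-fold lower in eSAS. TFF1 itself had a log2 ratio of 0.056, as given above. CLCA2, a protein of stratified epithelia, had a processed signal of 118 on SAS and 34.6 on eSAS at A_23_P397248, a log2 ratio of -1.71 or 3.28-fold lower. XBP1, a transcription factor of secretory cells, and ELF3, an epithelial factor, were named for their signal on SAS and had log2 ratios of -0.0021 at A_23_P120845 and 0.11 at A_23_P104188. Other genes linked to goblet cells were mixed: AGR3, CLCA1, ITLN1 and ZG16 were well above background on neither array, while FCGBP, SPDEF and ERN2 were on both, with log2 ratios of 0.012, 0.25 and 0.55. The signals of SPDEF (20.4 on SAS, 23.3 on eSAS) and ERN2 (21.1 and 29.6) were low. The lowest signals well above background were 12.8 on SAS and 15.2 on eSAS.

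Enzymes of mucin-type O-glycosylation, which build the sugar chains of mucins, had a median log2 ratio of -0.0050 over 23 measured genes, 11 higher and 12 lower. GALNT4 was the gene with a probe past 2-fold, A_24_P942370, with 36.7 on SAS and 75.7 on eSAS and a log2 ratio of 1.10. Its other probe, A_23_P413576, had a log2 ratio of 0.24, so the probes of GALNT4 disagreed in size. GCNT3, a mucin-type core enzyme, was well above background on eSAS, with a signal of 24.0 at A_23_P151915, and not on SAS, a difference of at least 1.94-fold. The lowest signal well above background on eSAS was 15.2. The other GCNT3 probe, A_23_P420209, was well above background on neither array, with 3.52 on SAS and 7.72 on eSAS. B4GALT1 and GALNT3, named for their signal on SAS, had log2 ratios of 0.082 at A_24_P103803 and -0.17 at A_23_P209459, and the other GALNT3 probe, A_24_P114249, had 0.36.

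Membrane mucin partners and sheddases had a median log2 ratio of -0.032 over 16 measured genes, 6 higher and 10 lower, and 0 of their 33 probes passed 2-fold. LGALS3, a galectin that binds MUC1, had a log2 ratio of -0.44 at A_23_P128919. MET, the receptor bound by MUC20, had 0.071 ± 0.060 (SD, 10 spots) at A_23_P359245. MSLN, which binds MUC16, was well above background on neither array.

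**Figure D4:**
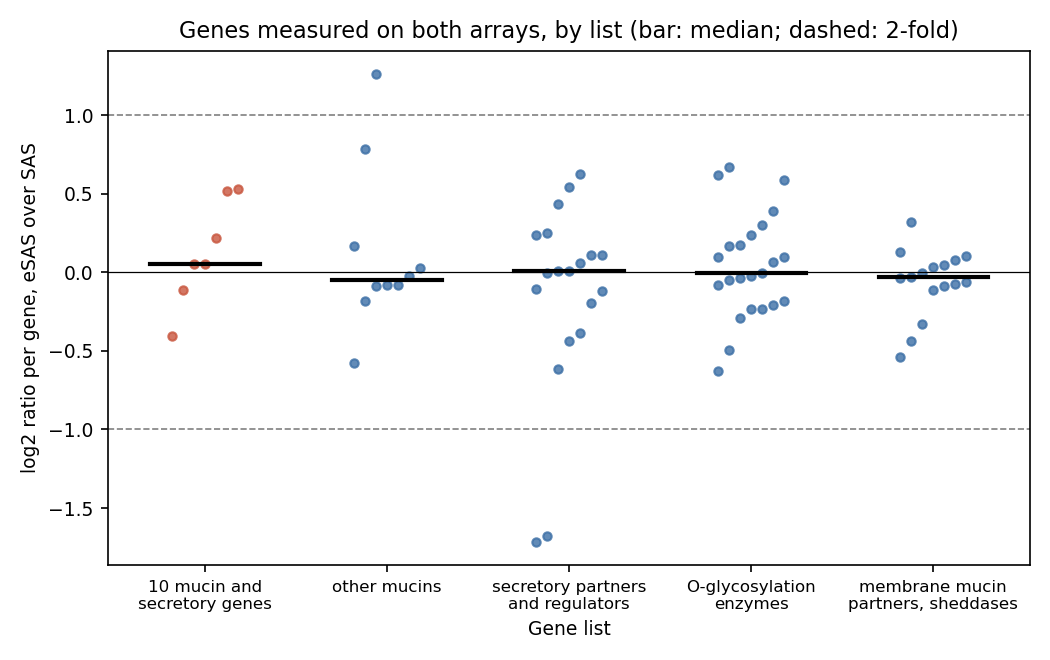
Log2 ratio of eSAS over SAS per gene, averaged over probes well above background on both arrays, for the 10 mucin and secretory genes (7 measured, red) and the 4 other lists (10, 19, 23 and 16 measured, blue); bars are medians and dashed lines mark 2-fold. The medians all lie near 0, with MUC3B above 2-fold and ESR1 and CLCA2 below it.

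The markers of squamous and simple epithelium gave different values beside these genes. All 10 measured squamous markers were lower in eSAS, with a median log2 ratio of -0.50. Their range was from -3.90 for KRT14, whose probes had -6.58 and -1.23, to -0.23. The summed processed signal of the squamous markers was 168780 on SAS and 107872 on eSAS. Of these sums, S100A2, in row 483, gave 87364 and 58373. The 5 simple epithelial genes had a median of 0.040, 3 higher and 2 lower, with a summed signal of 606044 on SAS and 623957 on eSAS. Fibroblast markers summed to 70.8 on SAS and 70.1 on eSAS with 0 of 6 measured on both arrays, although LUM, in row 461, was at least 2.40-fold higher in eSAS. Of 4 endothelial markers 1 was measured (VWF, log2 ratio -0.10). CD68 had 717 on SAS and 752 on eSAS and CD14 had 215 and 233, log2 ratios of 0.12 and 0.17. Markers of ciliated cells summed to 118 and 88.6 with 2 of 4 measured. The sums take in every unmarked probe of a list, whether or not it was well above background. The part of these values in the ratios of MUC1, AGR2 and MUC20 was not tested.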

How the data were processed

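Single-colour arrays on 1 slide were hybridised with SAS RNA (1 array) and eSAS RNA (1 array). The authors deposited the output of Agilent Feature Extraction 10.7.3.1, as named in the submitters' processing notes, holding linear intensity values. Within each array the software subtracted background, removed spatial trend and set a surrogate for spots that did not exceed background, without scaling one array to the other. The deposited p-values of spot against background were not used. The deposited table of the series equalled the processed signal exactly, with no tolerance, at all 45015 spots. The paper's methods state no scaling for the arrays, which they refer to an earlier description, and a Student's test for p-values without naming the arrays.

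Here, processed signals were put on the log2 scale and the 75th percentile of their array was subtracted. Marked spots were left out, replicate spots were averaged, and a probe was well above background when over 50% of its spots were. A probe dim on 1 array was given a bound, from its own signal there or, if higher, that of the faintest probe well above background. Replicate spot SDs were pooled over 211 probes in all. Other genes were named by RefSeq accession (23958 probes), current symbol (2755) or older symbol (1032) with the GRCh38.p14 gene table, and 13255 probes kept the array's name. Positions of probes are in hg18, as the scanner files give them; no exon annotation of that build was used. The genes and lists were chosen with earlier results of these data known. Named from the lists were genes with a probe at least 2-fold apart and the 2 with the highest SAS signal. Probes are not compared in level. Marker genes, genes with no signal, goblet cell genes, MUC2, MUC3A, MUC19, MSLN and GCNT3 were named as well after values were seen. Alternatives were no scaling, median centring, quantile normalization, normexp with offset 50 on mean or median pixels, no background correction, the series table, other filters and limits for dim probes, marked spots kept, rows 450 to 510 left out and counting by gene. Normexp came from limma 3.58.1 (R 4.3.3), other steps ran in Python 3.11.15, and the counting was tested on simulated data. The summed signal of the leukocyte markers is not reported here.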

Additional observations from a re-analysis of the deposited data

How the results depend on the processing

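AGR2 and MUC1 had positive log2 ratios under every alternative run, from 0.48 to 0.63 and from 0.46 to 0.57. Without normexp in any form, their highest ratios were 0.56 and 0.55. With normexp on mean and median pixels of all spots, AGR2 had 0.63 and 0.62 and MUC1 had 0.52 and 0.57. These lay below the median over all genes, 0.68 in both runs, so these runs do not set them above other genes. MUC20 stayed lower, from -0.46 to -0.27, under all but normexp on all spots. A block for the slide could not be fitted because both arrays share it, and with 1 array of each no array can be left out. No paired analysis was possible because each population had a single array. Without normexp in any form, MUC5AC ranged from -0.0017 to 0.087 and TFF1 from 0.0014 to 0.090. MUC5B then stayed negative, from -0.17 to -0.015, and TFF3 positive, from 0.15 to 0.25. With normexp included, MUC5AC, MUC5B and TFF3 had ratios of either sign, from -0.016 to 2.59, from -0.17 to 2.42 and from -0.085 to 2.71. TFF1 then ranged from 0.0014 to 2.21. The upper ends came from normexp on all spots, where the median over all genes was 0.68. Below, the lists have the order other mucins, secretory partners and regulators, O-glycosylation enzymes, and membrane mucin partners.

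With normexp on mean pixels, 5 of the 7 probes were at least 2-fold higher and the median of the genes was 2.21, MUC20 included at 1.59; the medians of the lists were 2.29, 0.96, 0.47 and -0.11, with 9, 12, 15 and 8 probes higher and 0, 0, 1 and 1 lower. The median over all genes was then 0.68, and 11264 probes were 2-fold higher against 183 lower. With median pixels the values were 5 probes, 2.21 for the genes, 2.30, 0.95 and 0.46 for the first 3 lists, 9, 12, 15 and 8 higher and 0, 0, 1 and 1 lower. Leaving out spots with a non-uniform local background before normexp, a setting chosen after seeing the data, gave 0 probes of the 10 genes past 2-fold, and 0 of the lists' other mucins and enzymes were higher and 0 of the regulators lower. In that run the median over all genes was -0.0071, and of 28424 probes 86 were 2-fold higher and 156 lower.

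Without filter or lower limit, 1 probe was higher (TFF3) and 2 were lower (MUC20 and MUC5AC), all dim on both arrays, and the median was 0.27 over 10 genes. The lists' medians were then 0.18 for other mucins and 0.11 for regulators; 4 other mucins probes and 3 enzyme probes were higher, and 2, 4 and 1 probes of the first 3 lists were lower. Without a lower limit alone, 1 other mucins probe was lower and 2 enzyme probes were higher. With no background correction, the other mucins had a median of 0.029, and 0 of their probes and 0 of the enzymes' were higher and 0 of the regulators' lower. Quantile normalization gave 2 enzyme probes higher, and counting genes gave 0. Over all 28439 probes, no background correction gave 125 higher and 161 lower; requiring both arrays gave 250 and 335, and no filter gave 1375 and 1536 over 40814 probes. Unless the setting itself changes which probes are counted, the cause was not tested.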

Other observations

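Some genes of the lists were picked out after their values were seen, and each is a single comparison of 2 arrays. C1GALT1, the enzyme that makes the core 1 sugar of mucins, had a log2 ratio of 0.59 at A_23_P252145, with 397 on SAS and 576 on eSAS. Its chaperone C1GALT1C1 had -0.63 at A_23_P159839, with 7257 on SAS and 4523 on eSAS. FOXA1 and FOXA2, factors of secretory epithelia, differed in sign. FOXA1 had -0.41 ± 0.20 (SD, 7 spots) at A_23_P37127 and -0.47 at A_24_P347431, and the FOXA2 probes had 0.18 at A_23_P500936, 0.29 at A_24_P365515 and 0.25 at A_24_P365523. TFF2, whose gene lies between those of TFF1 and TFF3, had 0.62 at A_23_P57364 in row 453, with 24.0 on SAS and 35.6 on eSAS. SRC, a kinase that phosphorylates MUC1, had -0.54 ± 0.053 (SD, 9 spots) at A_23_P308603.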
